A study of Mus musculus with 12 samples.

Results

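The mitosis and G2/M genes are 36 genes whose products carry a cell from the end of DNA replication through chromosome segregation and cell division. They were chosen by gene symbol from a fixed list, with no threshold on a measured value, and all 36 were found among the 24421 symbols of the table. All 36 also had a mean of at least 1 FPKM over the 12 libraries, the minimum for testing, which 12765 symbols met. FPKM divides a gene's fragments by the length of its transcript and by the library's total, which gives a level per length, so levels of different genes can be set side by side.

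The libraries came from tumours of the mouse 425-ICC model of intrahepatic cholangiocarcinoma, a cancer of the bile ducts within the liver. Total RNA of tumour tissue was taken after 8 days of treatment, with 3 libraries in each of 4 groups. Control tumours received IgG. GC tumours received GC, which the labels give only as this abbreviation and the series title calls chemotherapy. ICB tumours received dual immune checkpoint blockade, and according to the series title the targets were CTLA-4 and PD1. Combination tumours received GC together with dual ICB, so the design asks what each treatment and their combination did to the tumours' transcripts. The labels give no strain, sex, age or genotype of the mice or the tumour line, and do not say whether the 3 libraries of a group came from separate animals. P-values therefore measure the spread between these libraries, which may in part be technical.

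Entry into mitosis is driven by the kinase CDK1 bound to cyclin B, after cyclin A has served in S phase and G2. Mitotic kinases of the Aurora, Polo and NIMA families then build the spindle, kinetochore proteins attach chromosomes to it, and the spindle assembly checkpoint holds back the anaphase-promoting complex until every chromosome is attached. Transcripts of these genes are low in resting cells and rise together in G2, through the MuvB complex with B-MYB and FoxM1. In a tumour, their summed level is commonly used as a measure of how much of the tissue is dividing. In bulk tissue, fewer dividing cells and less transcript per dividing cell cannot be told apart.

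The promoters of such genes are known for a cell cycle homology region (CHR), the element through which the MuvB complex binds DNA, and for CCAAT boxes, the sites of the trimeric factor NF-Y. RefSeq promoter windows (GRCm38.p6, from 250 bases before to 50 bases after the start) matched 31 of the 36 genes with 33 windows, since Ect2 and Prc1 had more than 1. Ccna2, Aurkb, Kif20a, Tpx2 and Foxm1 had no window in the table. Printed here are the 120 bases just before the start of 7 genes, chosen to show the forms the promoters took. Sequences run 5′ to 3′ on the strand of the gene, and capitals mark matches of the CHR element (TTTGAA) and of the CCAAT box. Matches were sought on both strands, so one on the other strand appears as its reverse complement.
Cdk1 (chr10:69352913-69353032, minus strand): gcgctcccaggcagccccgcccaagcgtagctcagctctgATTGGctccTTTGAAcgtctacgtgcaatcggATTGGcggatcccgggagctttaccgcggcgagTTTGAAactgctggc
Cdc20 (chr4:118437344-118437463, minus strand): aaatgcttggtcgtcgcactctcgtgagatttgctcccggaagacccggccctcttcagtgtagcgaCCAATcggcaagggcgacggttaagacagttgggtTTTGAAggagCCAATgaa
Top2a (chr11:99024190-99024309, minus strand): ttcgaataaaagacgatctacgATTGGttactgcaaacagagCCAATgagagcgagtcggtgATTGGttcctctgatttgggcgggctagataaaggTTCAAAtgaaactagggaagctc
Kif11 (chr19:37376262-37376381, plus strand): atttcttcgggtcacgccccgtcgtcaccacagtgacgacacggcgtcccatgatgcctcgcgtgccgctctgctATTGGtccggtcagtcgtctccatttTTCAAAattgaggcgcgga
Mki67 (chr7:135716380-135716499, minus strand): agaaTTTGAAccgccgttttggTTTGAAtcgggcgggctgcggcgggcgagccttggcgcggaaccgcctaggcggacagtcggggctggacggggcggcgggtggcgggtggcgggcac
Bub1 (chr2:127831860-127831979, minus strand): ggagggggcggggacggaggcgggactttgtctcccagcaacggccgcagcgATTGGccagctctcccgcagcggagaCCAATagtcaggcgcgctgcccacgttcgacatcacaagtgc
Birc5 (chr11:117849117-117849236, plus strand): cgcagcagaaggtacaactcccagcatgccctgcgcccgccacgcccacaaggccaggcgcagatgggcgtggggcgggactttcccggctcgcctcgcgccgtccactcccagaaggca

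In Cdk1 the proximal CHR element began 15 bases before the start, in Cdc20 18 bases, in Kif11 19 bases and in Top2a 23 bases, each with at least 1 CCAAT box in the printed stretch. Mki67 held 2 CHR elements, 116 and 98 bases before the start, with its 3 CCAAT boxes further upstream of the printed stretch. Bub1 held 2 CCAAT boxes and no CHR element, and Birc5 held neither. On both strands, TTTGAA was found in 25 of the 33 windows (75.8%), against 12.2% of the 12145 windows of all tested genes. CCAAT was found in 26 of 33 windows (78.8%), against 37.5%, and both motifs together in 22 of 33 (66.7%), against 4.82%. The letters of the 2 motifs can share at most 1 base. Among 41 windows of the DNA replication and G1/S genes, the shares were 19.5% for the CHR element, 56.1% for the CCAAT box and 9.76% for both. The 29 windows of the other mitotic genes held them in 58.6%, 72.4% and 41.4%. The 23 genes with a CHR element had a median ratio of 10.3 between their highest and lowest library, and the 8 without, which were Ccnb1, Bub1, Mad2l1, Nek2, Birc5, Cenpe, Nusap1 and Nuf2, had a median ratio of 10.7. A match describes the letters in this window and is not a measured binding site.

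**Figure D1:**
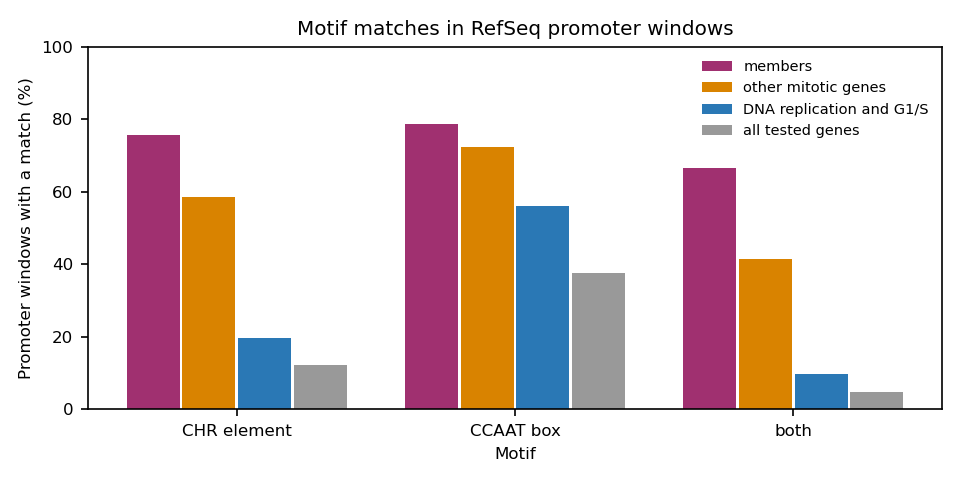
Share of RefSeq promoter windows (y axis, percent) that hold a CHR element, a CCAAT box or both, for the 33 windows of the mitosis and G2/M genes, the other mitotic genes, the DNA replication and G1/S genes and all tested genes. Both motifs stood together in 66.7% of the windows of the mitosis and G2/M genes and in 4.82% of those of all tested genes.

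Some libraries stood apart from the rest of their group before any comparison. A list of 20 hepatocyte genes made up 19.1% of all FPKM in Combination replicate 2, 7.62% in replicate 3 and 0.747% in replicate 1, against 0.00152% to 0.0155% in Control, 0.142% to 1.20% in GC and 0.0676% to 0.409% in ICB, and between 1 and 6 of the 20 were listed at 0 in the Control libraries. Combination replicate 1 held 1.09% of FPKM from 16 small intestinal genes, all of them above 0, where no other library held over 0.123%. Skeletal muscle genes made up 0.24% in Control replicate 2 and 0.702% in GC replicate 2. Control replicate 1 had the lowest macrophage share, 0.0623% against 0.692% and 1.10% in the other Control libraries, and the lowest Ptprc, a marker of all leukocytes, at 3.41 FPKM. Combination replicate 2 was the next lowest in both, at 0.137% and 3.43 FPKM. Among markers of bile duct cells, Sox9 was present in all libraries (7.56 FPKM in Combination replicate 2 to 91.9 FPKM in Control replicate 1), while Krt19 was listed at 0 in Control replicates 2 and 3 and Epcam in Control replicate 3 and ICB replicate 1. Epcam was at 126 FPKM in Combination replicate 1 and at most 5.80 FPKM elsewhere. A list of 10 such markers, of which at most 3 were at 0 in any library, made up 0.292% to 0.452% of FPKM in Control. Its share was lowest in Combination replicate 2, at 0.112%, and highest in Combination replicate 3, at 1.43%. The mean log2(FPKM + 1) of the same list ranked the libraries differently. By that measure Combination replicate 2 was at 3.57, against 2.24 to 3.58 in Control, and Combination replicate 1 was highest, at 5.41. Rn45s, the ribosomal RNA precursor, was at 3901, 957 and 1050 FPKM in Control, 1165, 1059 and 1267 FPKM in GC, 1518, 26773 and 8744 FPKM in ICB, and 2586, 3771 and 1630 FPKM in Combination. FPKM keeps no read counts here, so depth is unknown. The summed FPKM ran from 547146 to 660067 per library and the symbols above 0 from 14533 in Control replicate 1 to 16442.

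The 36 genes varied together from library to library, and within the Control and Combination groups more than between groups. In every one of the 36, the lowest 2 libraries were Control replicate 1 and Combination replicate 2. Control replicate 1 was the lowest for 10 genes and Combination replicate 2 for 26, and the same pair was lowest in 1772 of the 12765 tested genes (13.9%). The highest library was Control replicate 3 for 22 genes, Combination replicate 1 for 12 and Control replicate 2 for 2, so the extremes on both sides lay within the Control and Combination groups. Between the highest and lowest library the genes differed 10.4-fold at the median, from 6.54-fold for Plk1 to 45.6-fold for Ttk, and between the highest and the third lowest library 3.31-fold.

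The mean log2(FPKM + 1) over the 36 genes was 2.28, 4.26 and 4.55 in Control replicates 1, 2 and 3. It was 3.75, 4.14 and 3.88 in GC, 3.94, 3.24 and 3.24 in ICB, and 4.45, 1.91 and 3.19 in Combination. The GC libraries lay close together and the Control and Combination libraries were spread widely, with group means of 3.70 ± 1.23 in Control, 3.92 ± 0.20 in GC, 3.47 ± 0.40 in ICB and 3.19 ± 1.27 in Combination (SD, n = 3 each). As summed FPKM, the genes reached 207, 846 and 1098 in Control, 635, 856 and 691 in GC, 661, 416 and 416 in ICB, and 1076, 131 and 383 in Combination. Within Control, ICB and Combination, the library of lowest mean over the 36 genes (replicates 1, 2 and 2) was also the one of highest Rn45s, though ICB replicates 2 and 3 were almost level in the 36 genes, and in GC this was not so. The part of ribosomal RNA in these levels was not tested. The share of all FPKM taken by the 36 genes ran from 0.0239% in Combination replicate 2 to 0.174% in Combination replicate 1.

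The library's mean over the 36 genes accounted for 93.0% of the variance within the genes, against 6.34% when the same was done with the mean over all tested genes. For the other mitotic genes this share was 83.3%, for DNA replication and G1/S genes 76.4%, for condensin and cohesin 67.8% and for the core of the anaphase-promoting complex 59.1%. These shares depend on the number of genes in a list and are given as a description. Differences between the 4 groups held a median of 12.5% of a gene's variance, from 4.63% to 24.2%, where the median over all tested genes was 38.1%. The median range over the libraries was 2.86 on the log2 scale, against 1.74 for all tested genes.

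**Figure D2:**
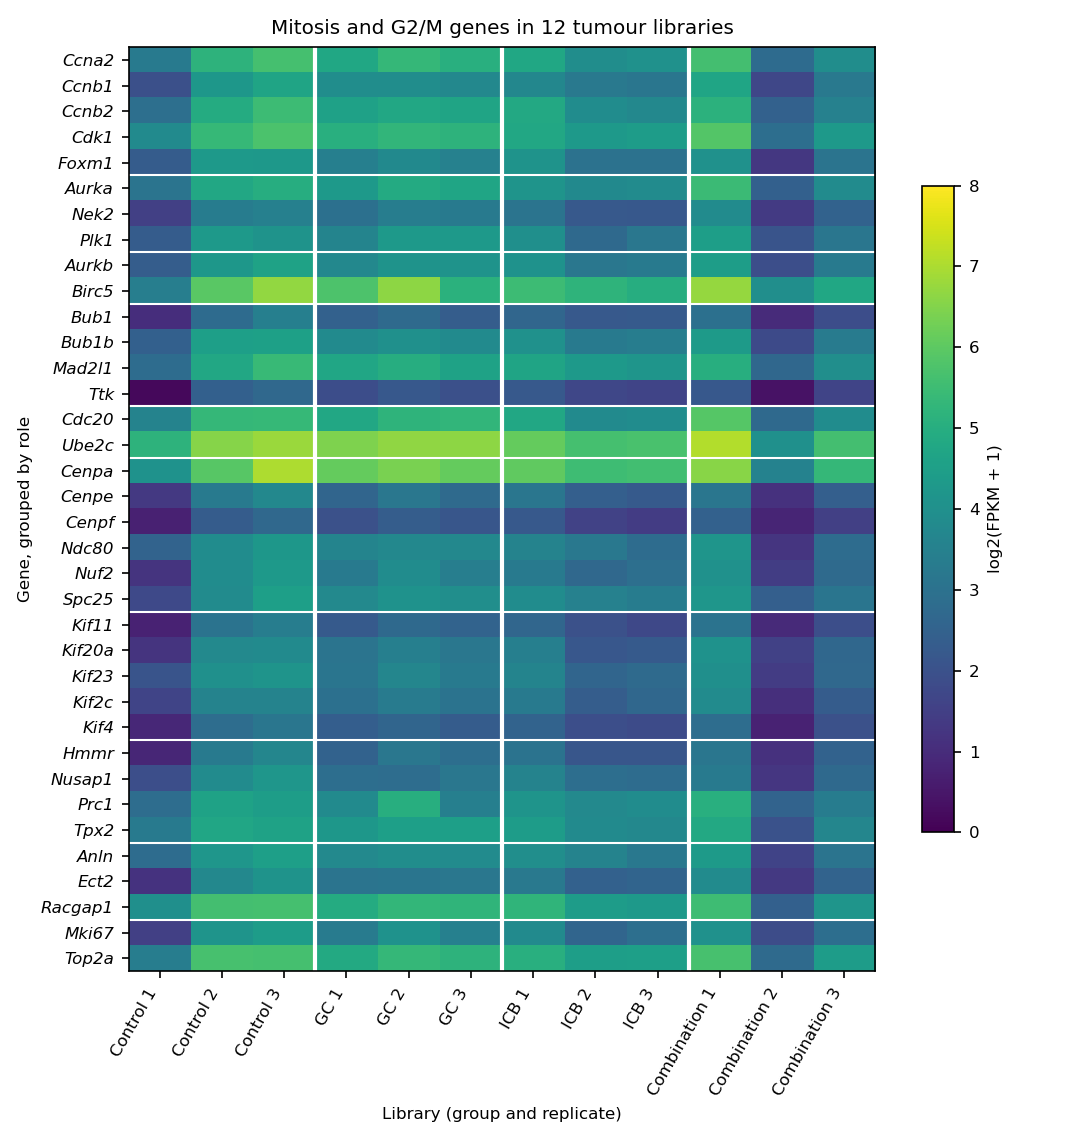
Level of each of the 36 genes, as log2(FPKM + 1) in colour, with genes as rows grouped by role and the 12 libraries as columns. Control replicate 1 and Combination replicate 2 are the darkest columns, and Control replicate 3 and Combination replicate 1 the lightest for most genes.

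**Figure D3:**
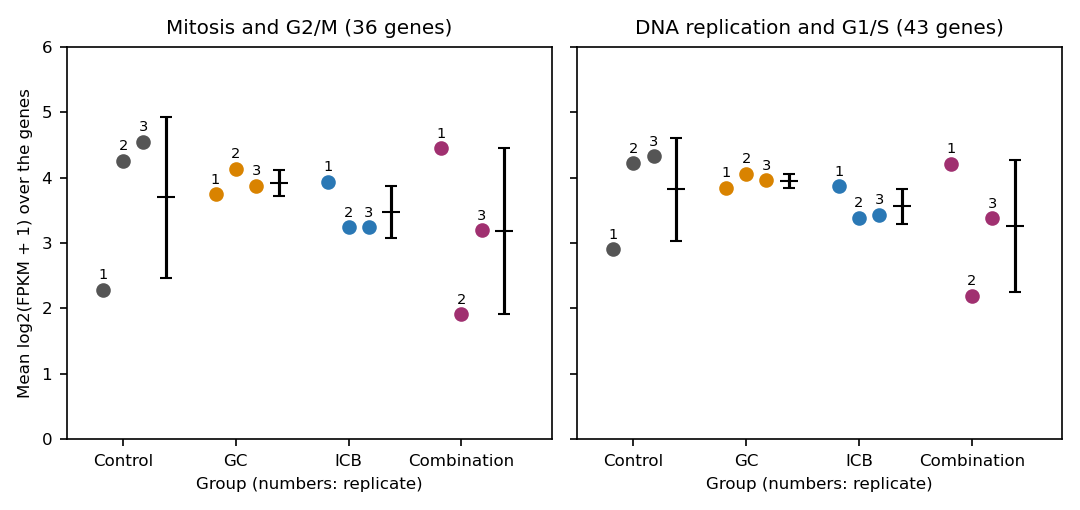
Mean log2(FPKM + 1) in each library (points, with the replicate number) and the group mean with its SD (bars, n = 3), for the 36 mitosis and G2/M genes and for 43 DNA replication and G1/S genes. The Control libraries span 2.28 to 4.55 and the Combination libraries 1.91 to 4.45, wider than the distance between any of the group means.

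Values of single genes are given below in the order of replicates 1, 2 and 3 of each group, and differences are limma estimates on the log2(FPKM + 1) scale with their standard error, from a fit of all 12 libraries. Cdk1, the kinase that triggers mitotic entry (GRCm38 chr10:69335146-69352938), was at 13.1, 40.2 and 52.7 FPKM in Control, 32.4, 37.8 and 34.9 FPKM in GC, 27.0, 19.1 and 20.6 FPKM in ICB, and 57.4, 6.43 and 18.9 FPKM in Combination. Its 3 GC libraries were all above its 3 ICB libraries, while Control and Combination overlapped with every other group. Combination against Control the difference was -0.61 ± 0.65 (limma, adjusted p = 0.533). Ccna2, cyclin A, which partners CDKs in S phase and G2, was at 8.85, 35.3 and 49.2 FPKM in Control, 26.0, 39.1 and 32.4 FPKM in GC, 26.2, 14.3 and 15.6 FPKM in ICB, and 48.1, 6.0 and 14.1 FPKM in Combination. Ccnb1, the cyclin B that activates CDK1, was at 2.85, 18 and 24.6 FPKM in Control, 14.2, 14.3 and 12.3 FPKM in GC, 12.1, 8.44 and 7.83 FPKM in ICB, and 24.9, 2.28 and 8.46 FPKM in Combination. For both cyclins the libraries of low level were again Control replicate 1 and Combination replicate 2, and in Ccnb1 the GC libraries lay above the ICB libraries without overlap. Ccnb2, a further B-type cyclin, ran from 4.61 FPKM in Combination replicate 2 to 44.2 FPKM in Control replicate 3. Foxm1, the transcription factor that switches on many G2/M genes, was at 4.06, 18.7 and 18 FPKM in Control, 9.95, 12.8 and 10.4 FPKM in GC, 16.3, 7.01 and 7.17 FPKM in ICB, and 15.7, 1.47 and 7.47 FPKM in Combination. Its 1.47 FPKM in Combination replicate 2 was the lowest of its values and 18.7 FPKM in Control replicate 2 the highest.

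Among the kinases that build the spindle, Aurka, Aurora A of the centrosome, was at 7.43, 26.5 and 30.7 FPKM in Control, 19, 28.6 and 24.8 FPKM in GC, 16.5, 12.8 and 13.7 FPKM in ICB, and 43, 4.42 and 13.6 FPKM in Combination. Plk1, the Polo-like kinase, was at 4.0, 18.6 and 16.3 FPKM in Control, 11.2, 19.2 and 18.5 FPKM in GC, 14.7, 5.59 and 7.93 FPKM in ICB, and 21.3, 3.25 and 7.89 FPKM in Combination. Nek2, a kinase that separates the centrosomes, was at 1.88, 9.27 and 10.1 FPKM in Control, 6.77, 9.57 and 8.77 FPKM in GC, 7.36, 3.71 and 3.63 FPKM in ICB, and 13.6, 1.58 and 4.77 FPKM in Combination. In all 3 genes the lowest and the highest value both came from the Combination group, in replicates 2 and 1, and the GC libraries lay between them. GC against Control, the difference was 0.50 ± 0.63 for Plk1 and 0.43 ± 0.62 for Nek2 (limma, adjusted p = 0.864 and 0.891), the largest of these 3 kinases and each smaller than its standard error.

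The chromosomal passenger complex corrects faulty attachments and later guides cytokinesis. Its kinase Aurkb, Aurora B, was at 4.17, 17.8 and 23.4 FPKM in Control, 12.2, 16.4 and 16.3 FPKM in GC, 15.7, 8.02 and 8.92 FPKM in ICB, and 21.0, 2.78 and 8.71 FPKM in Combination. Its subunit Birc5 (survivin) was at 9.66, 60.4 and 103 FPKM in Control, 53.8, 99.2 and 33.2 FPKM in GC, 43.7, 35.6 and 30.6 FPKM in ICB, and 107, 14.5 and 26.2 FPKM in Combination. Aurkb followed the mean of the 36 genes more closely than any other, with an SD of 0.083 around it on the log2 scale, and Birc5 departed from it most, with an SD of 0.42. In the spindle assembly checkpoint, Mad2l1, the MAD2 protein that inhibits CDC20, was at 6.15, 26.9 and 41.0 FPKM in Control, 25.4, 30.5 and 23.2 FPKM in GC, 24.3, 18.9 and 17.2 FPKM in ICB, and 31.4, 5.34 and 14.6 FPKM in Combination. The checkpoint kinases Bub1 and Ttk (MPS1) and the pseudokinase Bub1b (BUBR1) had the same 2 lowest libraries. Ttk was the least abundant of the 4 in Control replicate 1, at 0.119 FPKM, and reached 5.45 FPKM in Control replicate 3. At so low a level the pseudocount of 1 shrinks log2 differences.

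Cdc20, which activates the anaphase-promoting complex once the checkpoint is satisfied, was at 10.9, 39.2 and 40.3 FPKM in Control, 27.0, 35.5 and 37.1 FPKM in GC, 26.8, 13.3 and 13.8 FPKM in ICB, and 58.2, 5.65 and 13.8 FPKM in Combination. Ube2c, the ubiquitin-conjugating enzyme of that complex and the most abundant of the 36 genes with a mean of 74.1 FPKM, was at 35.2, 92.2 and 111 FPKM in Control, 86.1, 101 and 98.1 FPKM in GC, 67.4, 49.1 and 51.4 FPKM in ICB, and 135, 15.1 and 47.7 FPKM in Combination. In both genes each GC library was above each ICB library, and the highest library of all was Combination replicate 1. GC against ICB, Cdc20 differed by 0.91 ± 0.70 with a 95% interval of -0.63 to 2.45 (limma, adjusted p = 0.921). Ube2c differed by 0.76 ± 0.64 (limma, adjusted p = 0.921). An exon of Ube2c overlaps Tnnc2, a muscle troponin gene of the opposite strand, and an exon of Cdc20 overlaps Elovl1. Whether strand was used in counting is not given in the sources used here, so reads of such pairs cannot be told apart. In all, 9 of the 36 genes have an exon overlapping a gene of the other strand, the others being Ccna2, Prc1, Nusap1, Kif4, Kif20a, Plk1 and Nek2. Top2a and Foxm1 have an exon overlapping a gene of the same strand, which strand could not separate. With these, 11 of the 36 have an exon overlapping another gene. Ccnb1, Ccnb2 and Kif4 each have an annotated gene named as their copy and are uncertain to the extent that reads were split with it.

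At the centromere and kinetochore, Cenpa, the histone H3 variant that marks the centromere, was at 15.8, 59.6 and 129.7 FPKM in Control, 68.2, 82.4 and 68.2 FPKM in GC, 65.3, 44.4 and 46.3 FPKM in ICB, and 94.6, 10.7 and 38.8 FPKM in Combination. Ndc80, the subunit of the NDC80 complex that binds microtubules, was at 4.86, 13.7 and 17.8 FPKM in Control, 11.3, 12.3 and 12.2 FPKM in GC, 11.1, 8.16 and 6.15 FPKM in ICB, and 17.2, 1.36 and 6.08 FPKM in Combination. Spc25, a subunit at the inner end of that complex, was at 2.38, 13.4 and 21.8 FPKM in Control, 12.5, 15.8 and 14.4 FPKM in GC, 14.0, 10.4 and 9.22 FPKM in ICB, and 17.4, 4.37 and 7.66 FPKM in Combination. Cenpa had its highest value in Control replicate 3, and the GC libraries of Cenpa, Ndc80 and Nuf2 were above their ICB libraries. Those of Spc25 were also tightly grouped, at 14.2 ± 1.67 FPKM (SD, n = 3) against 12.5 ± 9.72 FPKM in Control. The other members of this role, Nuf2, the motor Cenpe and the kinetochore protein Cenpf, ran from 1.28 to 19.2, from 1.19 to 12.4 and from 0.655 to 5.54 FPKM. Spc25 had the smallest p of the 36 genes GC against Control, with a difference of 0.55 ± 0.61 (95% interval -0.79 to 1.90, limma, adjusted p = 0.838). Without Control replicate 1 that difference was -0.26.

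The 5 kinesin motors included Kif11, which pushes the spindle poles apart, Kif2c, which takes microtubules apart at their ends, and Kif4, Kif20a and Kif23, which act in the central spindle. Kif11 ran from 0.70 FPKM in Control replicate 1 to 9.42 FPKM in Control replicate 3, which are libraries of the same group. Kif23, part of the centralspindlin complex, ran from 1.69 FPKM in Combination replicate 2 to 16.7 FPKM in Control replicate 3. Kif2c, Kif4 and Kif20a had their highest values of 13.5, 7.81 and 15.9 FPKM in Combination replicate 1, Control replicate 3 and Combination replicate 1. Racgap1, the partner of Kif23 in centralspindlin, was at 14.7, 47.8 and 49.4 FPKM in Control, 29.1, 38.2 and 36.3 FPKM in GC, 36.4, 20.5 and 19.2 FPKM in ICB, and 44.9, 4.43 and 17.0 FPKM in Combination.

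Racgap1 had the smallest p of the 36 genes Combination against Control, with a difference of -1.03 ± 0.67 (95% interval -2.51 to 0.44, limma, adjusted p = 0.318). Combination against GC, its difference was -1.10 ± 0.67 (limma, adjusted p = 0.346). The Combination libraries of Racgap1 overlapped with those of both groups, because Combination replicate 1 at 44.9 FPKM was above all GC libraries. Without Combination replicate 2 the difference from Control was -0.23, and without Combination replicate 1 it was -1.77. Anln, anillin, which links the contractile ring to the membrane, was at 6.09, 17.3 and 22.0 FPKM in Control, 12.5, 14.3 and 13.4 FPKM in GC, 14.6, 10.9 and 8.16 FPKM in ICB, and 19.4, 2.03 and 7.46 FPKM in Combination. Ect2, the exchange factor that switches on RhoA for ring contraction, ran from 1.23 to 16.1 FPKM, both in Control.

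Of the proteins that bundle or nucleate spindle microtubules, Tpx2, the activator of Aurora A, was at 8.55, 25.8 and 23.4 FPKM in Control, 17.8, 22.1 and 22.1 FPKM in GC, 20.6, 13.3 and 12.4 FPKM in ICB, and 27.5, 3.02 and 11.7 FPKM in Combination. Nusap1, which binds and stabilises spindle microtubules, was at 2.78, 13.4 and 17.6 FPKM in Control, 6.44, 6.28 and 7.96 FPKM in GC, 10.9, 6.45 and 6.06 FPKM in ICB, and 8.92, 1.42 and 5.68 FPKM in Combination. Tpx2 was highest in Combination replicate 1, whereas Nusap1 had a lower value in that library than in Control replicates 2 and 3 and in ICB replicate 1. Combination against ICB, Nusap1 had the smallest p of the 36 genes, with a difference of -0.65 ± 0.60 (limma, adjusted p = 0.537). Prc1, which crosslinks the central spindle, ran from 4.89 FPKM in Combination replicate 2 to 32.1 FPKM in Combination replicate 1, and Hmmr, a spindle pole protein, from 0.818 FPKM in Control replicate 1 to 11.8 FPKM in Control replicate 3. Mki67, the proliferation antigen Ki-67 that coats mitotic chromosomes, was at 1.84, 16.5 and 20.5 FPKM in Control, 9.11, 15.8 and 10.3 FPKM in GC, 13.1, 5.14 and 6.64 FPKM in ICB, and 15.6, 2.65 and 6.49 FPKM in Combination. Top2a, the topoisomerase that untangles sister chromatids, was at 9.57, 50.3 and 48.9 FPKM in Control, 27.9, 39.0 and 35.4 FPKM in GC, 32.3, 21.5 and 21.8 FPKM in ICB, and 50.1, 5.82 and 20.5 FPKM in Combination. For Ki-67 the mean was 13.0 ± 9.84 FPKM in Control, 11.7 ± 3.55 in GC, 8.28 ± 4.21 in ICB and 8.23 ± 6.63 in Combination (SD, n = 3 each), so the group means differed by less than the SD within Control.

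No gene of the 36 passed an adjusted p of 0.05 in any of the 8 tests made with limma, and in each test 0 of the 36 had an unadjusted p under 0.05. GC against Control, the median difference over the genes was 0.24 (32 higher and 4 lower, or 20 and 16 with quantile normalization, from -0.35 for Nusap1 to 0.55 for Spc25), beside a median of 0.09 over all tested genes, of which 0.00783% were called. ICB against Control, the median was -0.23 (4 higher, 32 lower), beside -0.06 over all tested genes, of which 0% were called. Cdc20 had the smallest p there, with a difference of -0.58 ± 0.70 (limma, adjusted p = 1). GC with ICB as its reference gave a median of 0.43 (35 higher, 1 lower), beside 0.17 over all tested genes, of which 0% were called. That comparison was added after the values had been seen. Of all tested genes, 41.2% were below 0 GC against Control, 57.9% ICB against Control and 31.0% GC against ICB. Since the 36 genes varied together, their counts of signs here and below are not 36 separate observations. At an unadjusted p under 0.05, the counts over all tested genes were 1259 (9.86%), 223 (1.75%) and 643 (5.04%) in these 3 comparisons. The shares were 26.3% Combination against Control, 16.5% Combination against GC and 20.5% Combination against ICB. They were 8.09% for the difference between the effects of GC with and without ICB, and 17.1% for the F over the 4 groups. In every test the 0 of the 36 was below the share over all tested genes. As the genes varied together, this does not show that the 36 were depleted of small p-values.

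Combination against Control, all 36 differences were below 0, with a median of -0.50 and a range of -1.03 to -0.12, beside a median of -0.29 over all tested genes, of which 3.95% were called. Combination against GC, all 36 were again below 0, with a median of -0.70 beside -0.36, and 0.666% of tested genes were called. Combination against ICB, 34 of 36 were below 0 (26 with the median of ratios, 30 with FPKM rescaled to a common sum, and 22 when that sum left out hepatocyte, intestinal and muscle genes, with a median of -0.089), with a median of -0.28 beside -0.21, and 2.24% of tested genes were called. These comparisons share the Combination libraries, and those with Control share its libraries, so their signs are not separate evidence, and the median over all tested genes lay below 0 in all 3, with 67.0%, 76.2% and 64.5% of tested genes below 0. When FPKM was rescaled by the median of ratios, the median over all tested genes moved to 0.01 Combination against Control, and the 36 genes then had a median of -0.22 with 4 above 0. The share of hepatocyte transcripts was highest in Combination replicates 2 and 3, the libraries with low values of the 36 genes in that group. Their mean log2 levels over the 36 genes were 1.91 and 3.19. Control replicate 1, at 2.28, held 0.0155% of FPKM from hepatocyte genes. Control replicate 2, at 4.26, held nearly the same share, 0.0151%. Its mean log2 level of the hepatocyte genes was 1.87, against 1.80 in Control replicate 1. With the hepatocyte mean as a covariate, the medians turned to 1.85 Combination against Control, 0.16 Combination against GC and 1.12 Combination against ICB. Then 36, 32 and 36 genes were above 0, with 0 called in each. Control did not overlap with the other groups in that covariate, so hepatocyte level and treatment cannot be told apart.

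The test of whether the effect of GC differed with and without ICB gave a median of -0.50 over the 36 genes, all below 0, beside -0.26 over all tested genes, of which 0.0157% were called. Spc25 had the smallest p, with -0.89 ± 0.87 (limma, adjusted p = 0.750), followed by Mad2l1 at -0.93 ± 0.91 and Cenpa at -1.09 ± 1.08. The sign of the median rested on 2 libraries: it was 0.23 without Control replicate 1 (28 genes above 0), 0.15 without Combination replicate 2 (30 above 0) and 0.88 without both (all 36 above 0), and with sample weights it was 0.17 (31 above 0), with 0 of the 36 genes called in each. The moderated F over the 4 groups called 1.83% of tested genes. Its smallest p among the 36 was that of Racgap1 (limma, adjusted p = 0.569). The median standard error of a difference was 0.65 and the median 95% interval reached 1.43 on either side, so differences smaller than about that size were not detectable with these libraries, and a lack of calls does not show that the groups were alike.

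**Figure D4:**
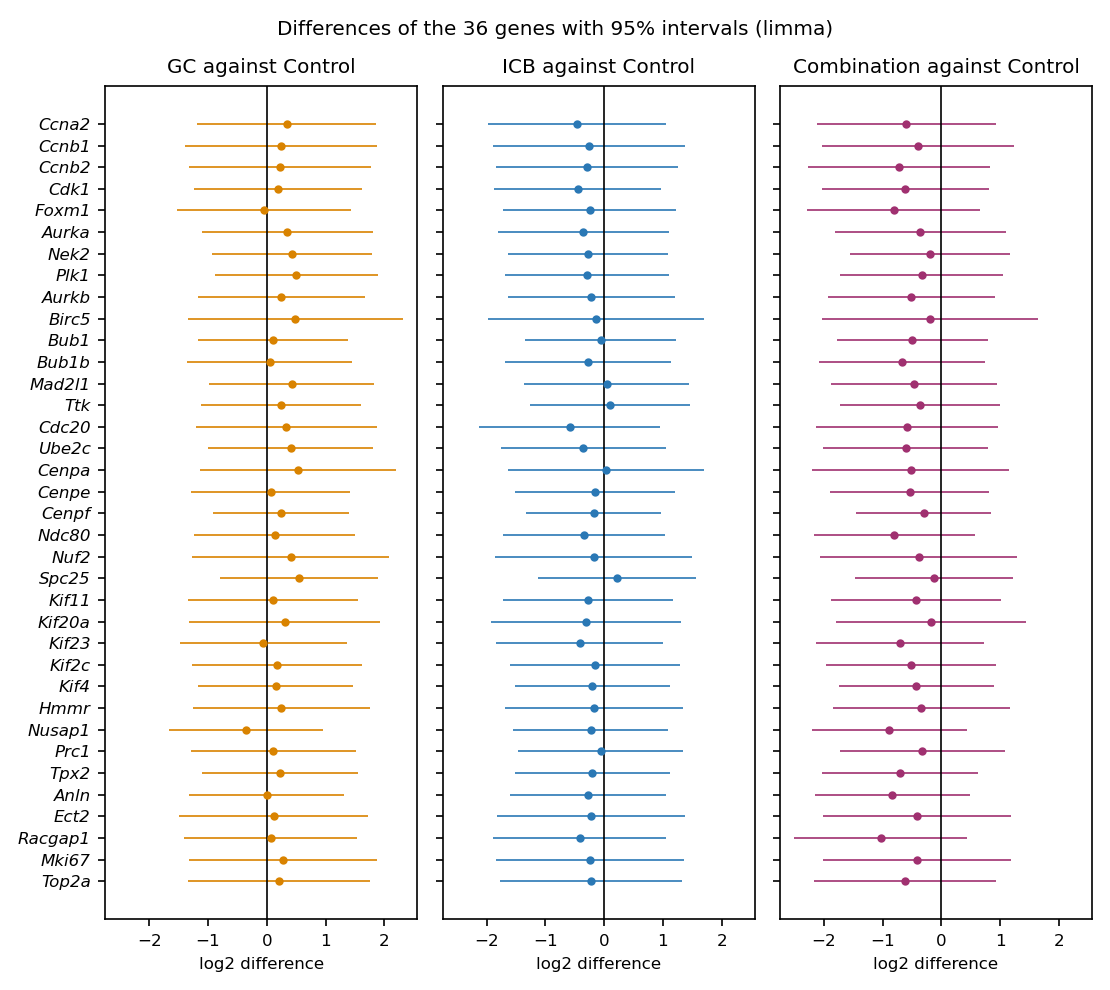
Difference of each of the 36 genes from Control on the log2(FPKM + 1) scale (x axis; points, with 95% intervals from limma), for GC, ICB and Combination. Every interval crosses 0, and in the Combination panel all 36 points lie below 0, from -1.03 for Racgap1 to -0.12 for Spc25.

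By role, the median difference Combination against Control ran from -0.34 for the mitotic kinases and -0.36 for the chromosomal passenger complex to -0.61 for CDK1, its cyclins and Foxm1 and -0.84 for the cytokinesis genes. GC against ICB, it was largest for the partners of the anaphase-promoting complex, at 0.84, and for the mitotic kinases, at 0.71, and smallest for the spindle assembly checkpoint, at 0.25. None of these role medians exceeded the half-width of the interval of a single gene. Groups overlapped for all 36 genes in the comparisons GC against Control, ICB against Control, Combination against Control, Combination against GC and Combination against ICB, in which 27.9%, 9.31%, 22.9%, 18.4% and 19.6% of tested genes did not overlap in either direction. GC against ICB, 8 of the 36 genes (22.2%) did not overlap and were higher in GC, namely Cdk1, Ccnb1, Aurka, Cdc20, Cenpa, Nuf2, Ndc80 and Ube2c. Of all tested genes, 21.8% did so in that direction and 26.3% in either, so the share of the 36 was near the background.

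The result depended on which libraries were counted and how much each weighed. Without Control replicate 1, the median Combination against Control was -1.22, with 16 of 36 genes at an unadjusted p under 0.05 and 0 called. In that comparison 229 of the 12765 tested genes were called. The median GC against Control turned to -0.50 in the same fit. Without Combination replicate 2 the median was 0.13 Combination against Control and 0.34 Combination against ICB. ICB against Control, it was 0.07 without Control replicate 2 and 0.20 without Control replicate 3. With Control replicate 1 and Combination replicate 2 left out together, ICB against Control had a median of -0.93, with 26 genes at an unadjusted p under 0.05, 0 called and a smallest adjusted p of 0.416 in limma. Of all 12765 tested genes 0 were called there. Tested genes at an unadjusted p under 0.05 were not counted in these fits, so the 16 and the 26 have no background beside them. Without Combination replicate 1, the median Combination against GC was -1.39 and 2 genes were called, Cdc20 with -1.77 (limma, adjusted p = 0.0486) and Ube2c with -1.78 (limma, adjusted p = 0.0381), where 23.6% of tested genes were called. Without Combination replicate 2 the median of that comparison was -0.089, with 6 genes above 0, and with the hepatocyte mean as a covariate it was 0.16, with 32 above 0, and 0 genes were called in either.

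When limma weighted libraries by their estimated quality, it gave Control replicate 1 a weight of 0.27, Combination replicate 1 0.19 and Combination replicate 2 0.11, against 6.45 for ICB replicate 3 and 4.44 for Combination replicate 3. The comparison of Combination then rested mainly on its replicate 3. Under these weights all 36 genes were below 0 Combination against Control, and 23 of them were called. Among those called was Racgap1 at -1.32 (limma, adjusted p = 0.0082), while 33.4% of all tested genes were called. Lower values were also called for 10 genes ICB against Control (10% of tested genes called) and for 9 Combination against GC (31.6% called). Cdc20, Nek2 and Ube2c were called higher GC against ICB (11% called), and 21 genes were called by the F over the 4 groups (47.7% called).

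After the mean of the 36 genes was subtracted from every gene in each library, the remaining SD was 0.22 at the median and 0 of the 36 were called in any comparison. Birc5, Prc1 and Nusap1 departed most from the common course. Relative to that mean, Birc5 was at -0.69, -0.14 and 0.33 in Control, 0.21, 0.68 and -0.60 in GC, -0.27, 0.13 and -0.08 in ICB, and 0.48, 0.22 and -0.25 in Combination, which follows no group. Prc1 was at 0.53 in GC replicate 2 and -0.78 in GC replicate 3. Nusap1 was at 0.25, 0.19 and 0.27 in Control, 0.25, 0.27 and 0.19 in ICB, -0.24, -0.67 and -0.10 in GC, and -0.53, -0.03 and 0.16 in Combination. Its GC and Combination libraries all lay below its Control and ICB libraries on this scale, a pattern picked out after its values were seen, and its exon overlaps Oip5 on the other strand.

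**Figure D5:**
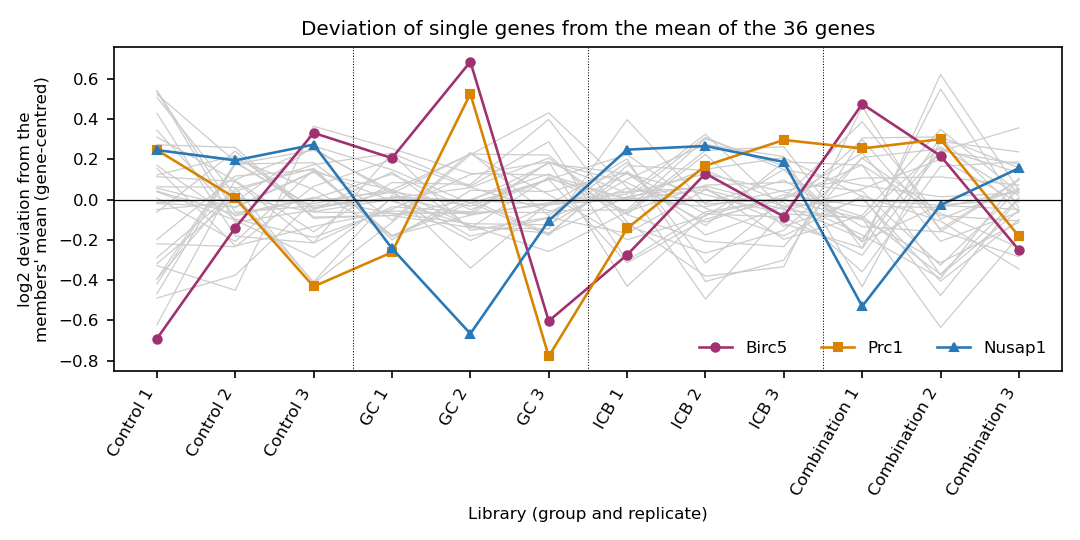
Deviation of each gene from the mean of the 36 genes in each of the 12 libraries (y axis, log2, centred on each gene's mean; grey lines), with Birc5, Prc1 and Nusap1 in colour. Birc5 and Prc1 swing within the GC group, and Nusap1 lies between 0.19 and 0.27 in the Control and ICB libraries and at 0.16 or below in the GC and Combination libraries.

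Lists of neighbouring cell cycle genes varied less than the 36, with a range of the mean log2 level of at most 2.24 against 2.64. Combination replicate 2 was the lowest library in all 8 lists, and Control replicate 1 the second lowest in 5, the exceptions being G1 cyclins and CDKs, CDK inhibitors and the core of the anaphase-promoting complex. The mean log2 level of 43 DNA replication and G1/S genes was 2.91, 4.23 and 4.33 in Control, 3.84, 4.06 and 3.96 in GC, 3.87, 3.39 and 3.43 in ICB, and 4.21, 2.20 and 3.38 in Combination. The mean of the 36 minus the mean of these replication genes was -0.63 in Control replicate 1, between -0.28 and 0.24 in the other libraries, so the mitotic genes were lower relative to replication genes in that library than in any other. Combination against Control, the median difference was -0.60 for the replication genes, -0.49 for 35 tested other mitotic genes, -0.65 for 16 condensin and cohesin genes, -0.55 for 17 core genes of the anaphase-promoting complex and -0.36 for 16 DREAM and MuvB regulators. None of these genes was called in any comparison between groups. Pcna, the DNA polymerase clamp, was lowest in Combination replicate 2, at 28.3 FPKM. Next came Combination replicate 3, at 57.2 FPKM, and Control replicate 1, at 59.5 FPKM, while Control replicates 2 and 3 were at 102 and 131 FPKM.

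Of the 8 lists, which also held G1 cyclins, CDK inhibitors and G2 DNA damage checkpoint genes, the only gene called in any comparison between groups was Gadd45b, a stress-induced gene whose product can inhibit CDK1. It was at 101, 22.0 and 35.2 FPKM in Control, 17.4, 18.2 and 24.5 in GC, 37.0, 36.8 and 48.2 in ICB, and 14.5, 4.44 and 11.3 in Combination. Its Combination libraries were all below its Control libraries, by -2.12 on the log2 scale (limma, adjusted p = 0.0424), and without Control replicate 1 the difference was -1.51 and the adjusted p 0.114. Cdkn1a, the CDK inhibitor p21, was at 110, 37.9 and 34.7 FPKM in Control, 71.8, 100 and 83.5 in GC, 60.2, 58.2 and 76.9 in ICB, and 59.0, 39.6 and 50.2 in Combination. GC against Control its difference was 0.67 ± 0.39 (limma, adjusted p = 0.633). Both genes were highest in Control replicate 1, where the 36 mitotic genes were low, and neither was high in Combination replicate 2, where they were low as well.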

How the data were processed

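RNA-seq libraries of 12 tumour samples were made with a stranded Qiagen kit, per the labels' protocols. The values are FPKM as deposited by the authors, 1 per gene symbol and library. The submitters' processing notes list HTSeq, HISAT2 and SAMtools, with FastQC and cutadapt, and the mm10 genome. Their versions, the annotation and the step that made FPKM are not given in the sources used here. Whole reads could not be recovered from low values (at most 17.3% of genes in the fullest bin of log2 ratios over 66 pairs of libraries), so no count model or counting interval was used, and the number of libraries limits the precision.

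Values were analysed as log2(FPKM + 1), which understates changes of low genes, using limma 3.58.1 (R 4.3.3). A mean per group was estimated in a single fit of all 12 libraries, leaving 8 residual degrees of freedom, and variances were moderated with a trend on the level. The 12765 genes averaging 1 FPKM or more were tested. Tests were two-sided, with Benjamini-Hochberg adjustment over these genes and a threshold of 0.05. The step was tested on simulated data. The members, lists and tests were chosen with earlier results of these data known. Members shown in every library were Mki67, Top2a, Cdk1, Ccnb1, Plk1, Aurka, Aurkb, Cdc20, Birc5, Foxm1 and the 3 of smallest p in each comparison. From the other lists, called genes and Pcna, Mcm2, E2f1, Ccne1, Ccnd1 and Cdkn1a could be named. Groups and replicate numbers follow the sample titles, whose numbers differ from those of the description field, and 0 value columns stayed unmapped. Gene positions are from GENCODE M21 (GRCm38). Alternatives were another pseudocount, filters, scalings, variance models, a replicate block, a hepatocyte covariate and left-out libraries.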

Additional observations from a re-analysis of the deposited data

How the results depend on the processing

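For the 36 mitosis and G2/M genes, no setting other than sample weights and the omission of Combination replicate 1 changed the count of 0 called, in any of the 8 tests. With sample weights (a gene-by-gene estimate, used because the default estimate did not converge), 10 were called ICB against Control, 23 Combination against Control, 9 Combination against GC, 3 GC against ICB and 21 by the F over the 4 groups. With single libraries left out, 0 to 2 were called Combination against GC. With the hepatocyte mean as a covariate, the median difference was 1.74 GC against Control, 0.72 ICB against Control, 1.85 Combination against Control, 0.16 Combination against GC and 1.12 Combination against ICB, with 0 genes called. At an unadjusted p under 0.05 the counts were 30, 0, 14, 0 and 9 of 36, and the smallest adjusted p in limma was 0.0596, for Ube2c GC against Control. Of all 12765 tested genes, 634, 0, 254, 240 and 310 were called in these comparisons. Those at an unadjusted p under 0.05 were not counted, so the counts of the 36 have no background beside them. In that covariate the Control libraries (mean log2 level 0.42 to 1.87) did not overlap with the other groups (3.01 to 11.3), so hepatocyte level and treatment cannot be told apart.

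With that covariate the difference also turned for Cdc20 ICB against Control (0.59), Racgap1 Combination against Control (1.62), Nusap1 Combination against ICB (0.40), Mki67 ICB against Control (0.75) and Combination against Control (1.99), and Cdk1 ICB against Control (0.62) and Combination against Control (2.00). With sample weights it turned GC against Control for Spc25 (-0.015), Mki67 (-0.49) and Cdk1 (-0.23). Without Control replicate 1 and Combination replicate 2, an omission chosen after seeing the data, it turned GC against Control for Spc25 (-0.26), Mki67 (-0.65) and Cdk1 (-0.39). Without Control replicate 2 and GC replicate 2, the pair rich in muscle transcripts, Mki67 ICB against Control was 0.15. After subtraction of the mean of the 36 genes, also chosen after seeing the data, Mki67 Combination against Control was 0.10 and Cdk1 GC against Control -0.031. With each library left out in turn, GC against Control ranged from -0.26 to 1.12 for Spc25, -0.65 to 0.81 for Mki67 and -0.39 to 0.58 for Cdk1. ICB against Control, Mki67 ranged from -1.16 to 0.30. Combination against Control, Mki67 ranged from -1.34 to 0.12 and Cdk1 from -1.37 to 0.12. The cause was not tested for these turns.

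With the replicate number of the titles as a replicate block, 0 of the 36 genes were called in any comparison. Same-numbered libraries correlated between -0.24 and 0.42 in their deviations from the group means (18 pairs), and the labels link the numbers to no animal or batch, so the libraries share only a number. The labels' description field numbers the libraries differently (2, 3 and 4 in Control, 1, 2 and 4 in GC and Combination, 1, 2 and 3 in ICB). There Control replicate 1 and Combination replicate 2 share the number 2 with GC replicate 2 and ICB replicate 2. With those numbers as a replicate block, a fit added after seeing the data, 0 of the 36 genes were called, the median was -0.63 Combination against Control and 0.083 GC against Control, and same-numbered libraries correlated between -0.25 and 0.29 (13 pairs, 4 of them above 0.1). The replicate block called 540 of all tested genes Combination against Control, or 556 by the description numbers, against 504 without it. Gadd45b Combination against Control kept its direction in every setting, from -2.58 to -1.51 with single libraries left out, and its adjusted p in limma was above 0.05 without any single library except Control replicate 2 or Combination replicate 1, with no filter (0.0706), with the description numbers as a block (0.0723), with the median of ratios (0.0731), with only the groups compared (0.304), with the hepatocyte covariate (0.558), without either pair (0.0679 and 0.125), and after subtraction of the mean of the 36 genes (0.611).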
